A study of Homo sapiens with 6 samples.

Results

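The islands of human chromosome 17 were examined in an anti-HA chromatin immunoprecipitation and sequencing (ChIP-seq) study of HA-METTL14. An island is a stretch of neighbouring windows rich in immunoprecipitated (IP) reads, as joined by the peak caller SICER. Members were all candidate islands on chromosome 17 in the 2 deposited tables, other than those touching 18950000 to 19110000 or 57780000 to 57935000 on hg19. They numbered 2997 of the 67802 candidates in the DRB table and 1867 of the 38696 candidates in the untreated table. The rule used position only, and the 2 windows took out 24 DRB and 14 untreated islands, of which 0 and 4 were significant.

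All cells were HepG2, a human liver cancer line that carries extra copies of several chromosomes, 17 among them. They stably expressed METTL14 with an HA tag at one end and EGFP at the other, from a lentivirus, after puromycin selection and sorting for high GFP. The DRB group, given 100 µM DRB for 3 h, had 1 IP and 1 input library. The untreated group, with no vehicle named, carried the same construct and had 2 IP and 2 input libraries, which the tables hold only as 1 pooled value per island. No library without the HA tag is among the samples, so the input is the only background, and overexpressed tagged protein stands for METTL14 throughout.

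METTL14 binds RNA and forms the core of the N6-methyladenosine writer together with the catalytic subunit METTL3. The complex works largely on nascent transcripts, and METTL14 recognises trimethylated lysine 36 of histone H3, a mark laid down in the bodies of genes during elongation. DRB is a nucleoside analog that inhibits CDK9, the kinase that releases paused RNA polymerase II into elongation. Chromosome 17 is small and gene-dense, with a short p arm and a longer q arm. Islands are named by hg19 position, because hg19 gene models were not used here.

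The chromosome 17 members held 86636 IP and 61038 input reads in the DRB table, against 602791 IP and 610332 input reads in the untreated table. The median member held 23 IP and 15 input reads with DRB, and 235 IP and 239 input reads untreated. Every fold below is IP over input reads times the constant of the deposited fold, 0.861 for DRB and 1.07 untreated. Intervals in brackets after a fold, or after a ratio of folds at an island, are exact 95% intervals. They cover counting error only, since PCR reads are not independent molecules and the files do not separate replicates. Brackets after a share are exact 95% binomial intervals over islands, taken as independent. Those after a ratio of arm medians combine the bounds of both medians and are not exact 95% intervals.

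Enrichment on chromosome 17 rested on few reads after DRB and was shallow in untreated cells. The median fold was 1.39 with DRB (quartiles 1.09 and 1.82) and 1.06 untreated (quartiles 0.99 and 1.15). Over all candidates of the genome it was 1.51 with DRB and 1.08 untreated. A fold of 2 or more was reached by 532 DRB members (17.8%, against 25.02% in the whole DRB table) and by 7 untreated members (0.375%, against 0.328% in the whole untreated table). A fold under 1 was found in 17.2% of DRB members (11.5% in the whole DRB table) and 28.5% of untreated members (23.6% in the whole untreated table). Candidates had already been picked on their IP reads, with a minimum of 11 IP reads with DRB and 43 untreated, so a median above 1 is partly built in.

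The deposited significant lists, at a false discovery rate under 1e-04, held 100 chromosome 17 islands with DRB and 93 untreated. That is 3.34% of the DRB members (2.72 to 4.04), where 4.76% of all DRB candidates were called. It is 4.98% of the untreated members (4.04 to 6.07), where 5.10% of all untreated candidates were called. The untreated share was thus close to that of the genome, and the DRB share was below it. The significant islands covered 119.8 kb with DRB and 521.0 kb untreated, and their median width was 1.0 kb and 4.0 kb.

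The lists differed in depth. A significant DRB island held a median of 18 IP and 4 input reads, and 87 of the 100 had 10 or fewer input reads. A significant untreated island held a median of 321 IP and 241 input reads. A two-sided exact binomial test that takes the error of both read counts into account was adjusted by Benjamini-Hochberg over each whole table. By it, 0 DRB members had IP above input at an adjusted p under 1e-04 or under 0.05. Over the genome 0.00442% and 0.00885% of DRB candidates passed those limits. At an unadjusted p under 0.05, IP was above input in 272 of the 2997 DRB members, where 12.4% of all DRB candidates passed. In the untreated table the same test called 19 members at 1e-04, where 0.700% of all candidates were called, and 94 at 0.05, where 5.17% were.

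The fold of a DRB island declined with its input count, which is partly built in. Input is the divisor of the fold, and every DRB candidate held at least 11 IP reads. The lowest fold among members with up to 5 input reads was thus 1.89. Members with up to 5 input reads had a median fold of 3.16 and made up 71 of the 100 significant islands. Members with more than 40 input reads had a median fold of 0.96, and 0 of those 291 were significant. All DRB candidates of the genome showed the same decline, with 3.16 and 1.01 in those classes. Untreated members moved over a smaller range, with a median fold of 1.39 at up to 100 input reads and 1.02 above 800.

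**Figure D1:**
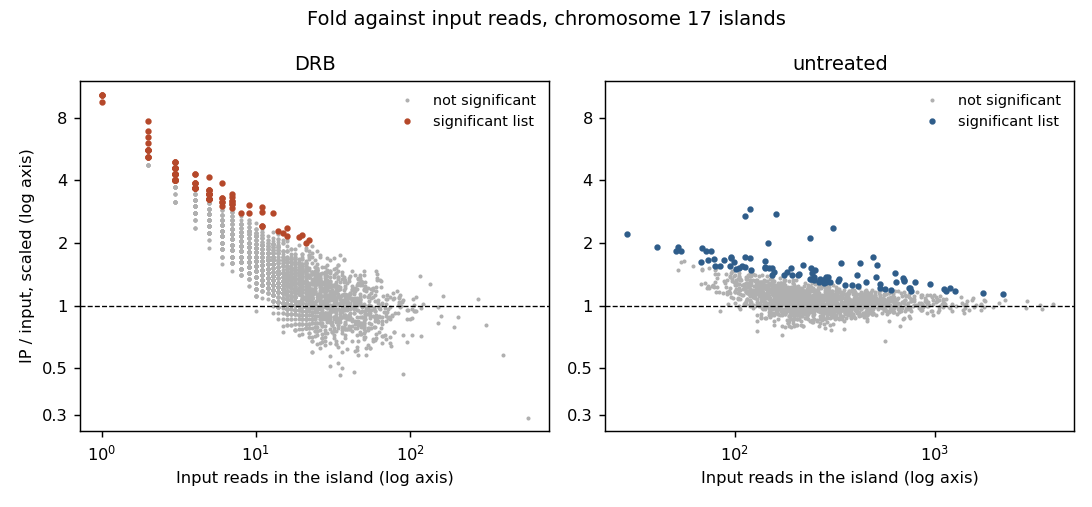
Scaled IP over input of each chromosome 17 island against its input reads, both on log axes, for the 2997 DRB islands at left and the 1867 untreated islands at right, with the significant list coloured. With DRB the significant islands sit at the low end of the input reads, at 22 or fewer; the untreated ones reach up to 2178 input reads.

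The p and q arms were divided at the longest stretch without an island in either table, 22261801 to 25263200, which is 3.00 Mb long. Islands were far sparser on the p arm. It held 290 DRB and 176 untreated islands, or 13.1 and 7.96 per Mb, while the q arm held 2707 and 1691, or 48.5 and 30.3 per Mb. Within the islands, the median input density was 7.08 reads per kb (p) and 7.78 (q) with DRB, and 57.7 (p) and 56.1 (q) untreated. Density within islands that were picked on their IP reads cannot stand for copy number, which was not measured here.

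A larger share of the p arm islands was significant. With DRB the share was 6.55% on the p arm (3.99 to 10.0), 19 islands, and 2.99% on the q arm (2.38 to 3.71), 81 islands. Untreated, it was 14.8% on the p arm (9.88 to 20.9), 26 islands, and 3.96% on the q arm (3.08 to 5.0), 67 islands. The intervals of the arms did not overlap in either table, though they treat islands as independent. Significant islands per Mb were fewer on the p arm with DRB, at 0.86 (p) and 1.45 (q). They were nearly equal on the arms in untreated cells, at 1.18 (p) and 1.20 (q).

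**Figure D2:**
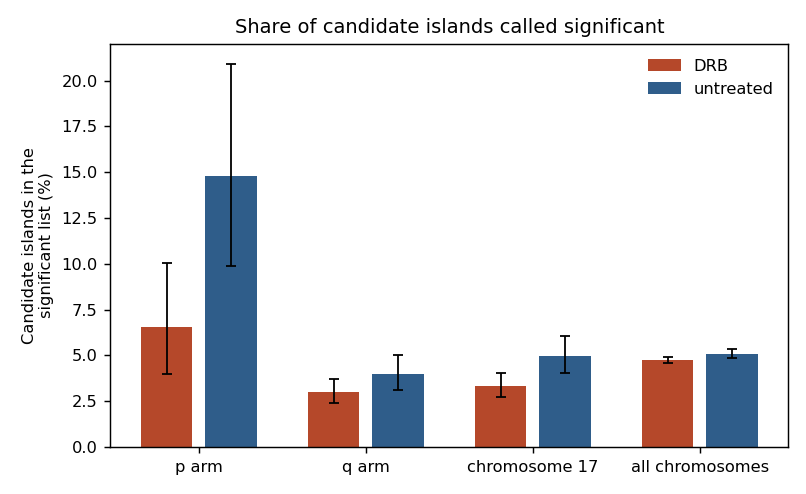
Percent of candidate islands in the significant list, for the p arm, the q arm, all chromosome 17 members and all chromosomes, with DRB bars left of untreated bars and exact 95% intervals. The untreated p arm stands highest at 14.8%.

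The median fold with DRB was 1.46 (p) and 1.38 (q), a ratio of 1.06 (1.01 to 1.18). Untreated, the medians were 1.14 (p) and 1.05 (q), a ratio of 1.08 (1.06 to 1.11). Summed over reads in place of the median, the DRB ratio was 0.96, on the other side of 1, and with at least 10 input reads per island it was 1.01. The bounds of these ratios combine the exact bounds of both medians, and the difference between arms was not tested.

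Bins of 1 Mb that held few islands had a larger share of them significant on the q arm with DRB, and overlapping intervals untreated. With DRB, 6.73% of the islands were significant (4.52 to 9.58) in the 21 q arm bins with fewer than 20 untreated islands, against 2.31% (1.74 to 3.02) in the 36 fuller bins. Untreated, the share was 6.14% (3.40 to 10.1) in the sparse q arm bins and 3.62% (2.73 to 4.71) in the fuller ones. On the p arm, 22 of 23 bins were sparse by that limit, with 6.74% of their islands significant with DRB (4.04 to 10.4) and 12.5% untreated (7.70 to 18.8). The other p arm bin, 7 to 8 Mb, had 24 untreated islands, of which 7 were significant. The limit of 20 islands was chosen after the values were seen. Spearman's rho between island number and summed fold was -0.48 over the 80 bins with DRB islands and -0.47 over the 78 bins with untreated islands, a description of bins that share 1 set of libraries each.

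With DRB the highest bins, among those with at least 5 DRB islands, were thinly read. The bin from 9 to 10 Mb on the p arm had 2.35-fold (1.65 to 3.40) from 120 IP and 44 input reads in 7 islands over 10.4 kb, and 4 of those islands were significant. It held 0 untreated islands, so its fold could not be compared between the tables. The bin from 51 to 52 Mb, on the q arm, had 2.18-fold (1.84 to 2.57) from 508 IP and 201 input reads in 27 islands over 40.2 kb, of which 5 were significant. Its untreated summed fold was 1.18 (1.11 to 1.24), with 0 of 13 islands significant. The others lay on the p arm, at 11 to 12 Mb with 2.03-fold (1.42 to 2.96), at 20 to 21 Mb with 1.95-fold (1.31 to 2.96) and at 13 to 14 Mb with 1.88-fold (1.53 to 2.33), from 6, 5 and 15 islands. Input in these 5 bins ran from 4.23 to 5.36 reads per kb, against a median of 7 over all DRB candidates. The lowest DRB bins were 22 to 23 Mb at 0.64 (0.59 to 0.70), 41 to 42 Mb at 0.96 (0.90 to 1.02) and 79 to 80 Mb at 1.04 (0.97 to 1.13).

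In untreated cells the 5 highest bins, among those with at least 5 untreated islands, were others, and all lay on the p arm. The bin from 1 to 2 Mb had 1.20-fold with DRB and 1.25-fold (1.18 to 1.32) untreated, and 8 to 9 Mb had 1.20-fold with DRB and 1.24-fold (1.18 to 1.29) untreated. At 7 to 8 Mb the values were 1.08 with DRB and 1.23 (1.18 to 1.27) untreated, at 4 to 5 Mb 1.38 with DRB and 1.22 (1.16 to 1.28) untreated, and at 17 to 18 Mb 1.37 with DRB and 1.21 (1.14 to 1.28) untreated. The q arm bin from 31 to 32 Mb had the highest untreated fold of all, 1.31 (1.17 to 1.46). It held 3 untreated islands and so was not ranked. The q arm bin from 33 to 34 Mb, with 7 untreated islands, had 1.205-fold (1.12 to 1.30) untreated. That was close to the 1.212 at 17 to 18 Mb, and the intervals overlap. The bins from 7 to 9 Mb together held 10 of the 93 significant untreated islands. On the q arm, the bin from 79 to 80 Mb held 6 significant untreated islands of 43, the most of any q arm bin. The lowest untreated bins were 22 to 23 Mb at 0.97 (0.93 to 1.02), 26 to 27 Mb at 0.99 (0.91 to 1.09) and 65 to 66 Mb at 1.01 (0.98 to 1.03).

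**Figure D3:**
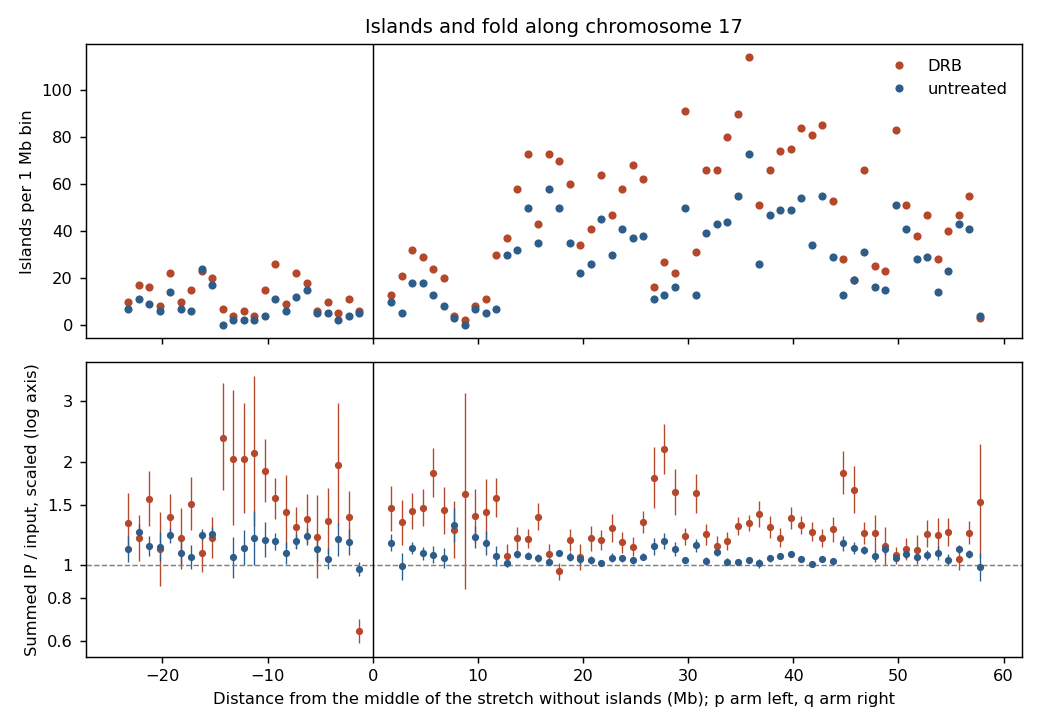
Islands per 1 Mb bin (top) and summed scaled IP over input with exact 95% intervals on a log axis (bottom) against distance from the middle of the stretch without islands, for DRB and untreated cells. The fullest bin holds 114 DRB and 73 untreated islands on the q arm, and over all bins with islands the summed fold spans 0.64 to 2.35 with DRB and 0.97 to 1.31 untreated.

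The bins were compared between the libraries with an exact conditional test of the 4 summed read counts, adjusted by Benjamini-Hochberg over 2392 bins of the genome. Of the 78 chromosome 17 bins with islands in both tables, 52 had a higher fold with DRB and 2 a lower one at an adjusted p under 0.05. Over the genome 77.0% of bins were higher and 2.34% lower. A smaller share of the chromosome 17 bins than of all bins was thus higher. Each table sums its own islands, picked on its own IP reads, so the stretches compared in a bin differ. At 51 to 52 Mb they covered 40.2 kb with DRB and 62.6 kb untreated. The part of this selection, and of the lower DRB depth, in the higher folds was not tested. The bins that were lower with DRB were 22 to 23 Mb, at 0.66 times the untreated fold, and 41 to 42 Mb, at 0.89 times. Without islands whose input density reached 5 times the median, 0 bins were lower and 54 higher, where 0.798% of all bins were lower and 78.3% higher. The median shift was 0.25 on the log2 scale over the chromosome 17 bins and 0.44 over all bins. Taken relative to the summed fold of autosomes and X in each table, 1.28 with DRB and 1.06 untreated, 6 chromosome 17 bins were higher and 14 lower, where 20.4% of all bins were higher and 6.31% lower. On that scale the bin from 51 to 52 Mb was still higher, at 1.53 times, while 7 to 8 Mb, at 0.73 times, and 79 to 80 Mb, at 0.78 times, joined the lower ones.

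The strongest DRB islands rested on a small number of reads. The first by lower bound, on the q arm at 56412401 to 56413200, had 18 IP and 2 input reads, 7.75-fold (1.85 to 68.8). The highest fold on the list, 10.3 (1.53 to 442), was shared by 3 single windows of 200 bp at 49523801, 51406201 and 53646001, each with 12 IP reads and 1 input read. Better read were 38751601 to 38753200 with 38 IP and 11 input reads, 2.97-fold (1.49 to 6.45), and 42571001 to 42571600 with 27 IP and 6 input reads, 3.87-fold (1.57 to 11.5). All 10 had an adjusted p of 0.353 in the exact binomial test.

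Few of these DRB islands had an untreated counterpart. Of the 10 strongest, 8 lay over no untreated candidate, as did 76 of all 100 significant DRB islands on the chromosome. The share among all DRB candidates of the genome is not given here. The 10 were 0.2 to 1.6 kb wide, against a median of 2 kb over DRB members, and width was not taken into account. The other 2 lay over untreated islands that were not significant. At 42571001 the DRB fold of 3.87 (1.57 to 11.5) stood against 1.04 (0.90 to 1.21) untreated, and at 62237601 the DRB fold of 3.44 (1.47 to 9.34) stood against 1.24 (1.00 to 1.54) untreated. The widest significant DRB island was 5.6 kb long, at 59513601 to 59519200, with 51 IP and 20 input reads, 2.19-fold (1.29 to 3.89).

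The steepest untreated islands were narrow. They are ranked by the lower bound of the fold, which favours islands that are both steep and well read. The first was on the q arm at 33478001 to 33478400, where 323 IP reads stood against 119 input reads, 2.91-fold (2.35 to 3.62). The second, on the p arm at 8076001 to 8077800, had 414 IP and 161 input reads, 2.76-fold (2.29 to 3.33). Another short q arm island at 31149401 to 31150000 had 275 IP and 147 input reads, 2.01-fold (1.64 to 2.47). Both short q arm islands lay in sequence of high input, at 5.69 and 4.68 times the median density of untreated candidates, while the p arm island was at 1.71 times.

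Islands 3 to 5 of the untreated ranking stood together on the q arm, within 50.2 kb. Their folds were 2.36 (2.06 to 2.70) at 56708001 to 56710800, 2.11 (1.80 to 2.48) at 56734601 to 56737200 and 2.70 (2.16 to 3.38) at 56756401 to 56758200. The first of them was the best read, with 683 IP and 311 input reads. A neighbouring untreated island at 56769201 to 56772800 had 229 IP and 258 input reads, 0.95-fold (0.79 to 1.14).

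A second q arm group spanned 56.6 kb, with significant islands at 41392201 to 41395200 (1.51-fold, 1.28 to 1.79), 41435601 to 41443000 (1.71-fold, 1.52 to 1.91) and 41444201 to 41448800 (1.61-fold, 1.42 to 1.82). The 21.2 kb island between the first and second of these, 41399601 to 41420800, had 2207 IP and 2226 input reads, 1.06-fold (1.00 to 1.13), and was not significant. To the left of the group, 41362001 to 41371400 had 496 IP and 666 input reads, 0.80-fold (0.71 to 0.90), one of 3 untreated members with IP below input at an adjusted p under 0.05 in the exact binomial test (0.0853% of all untreated candidates).

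The last of the 10 strongest were p arm islands. One at 7474601 to 7484000 was 9.4 kb wide with 756 IP and 515 input reads, 1.58-fold (1.41 to 1.77). The other, at 159001 to 159600 near the end of the chromosome, had 60 IP and 29 input reads, 2.22-fold (1.40 to 3.59), and was the only one of the 10 over which no DRB island lay. Between 7058201 and 7139200 lay 3 further significant p arm islands with folds of 1.44 to 1.63.

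Wide significant islands were shallow. The widest was 25.4 kb long at 56060401 to 56085800 on the q arm, with 2306 IP and 2178 input reads, 1.14-fold (1.07 to 1.21). The next were 73767001 to 73791000 (1.16-fold, 1.08 to 1.24), 79810801 to 79832800 (1.21-fold, 1.12 to 1.31), 62218201 to 62235600 (1.17-fold, 1.09 to 1.27) and 63547401 to 63562800 (1.20-fold, 1.11 to 1.31), from 24.0 down to 15.4 kb. Of the 33 untreated members over 20 kb, 3 were significant, and their median fold was 1.00. The longest of all, 69.6 kb at 65082001 to 65151600, had 3711 IP and 3891 input reads and 1.02-fold (0.98 to 1.07).

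The lists shared no island on chromosome 17, and few in the genome. Of the 100 significant DRB islands, 0 overlapped a significant untreated one, which at 3 counts of the list allows a share of up to 3% (exact upper bound 3.62%), where 1.08% of all significant DRB islands did. Of the 93 significant untreated islands, 0 overlapped a significant DRB one, which likewise allows up to 3.23% (exact upper bound 3.89%), where 1.77% of all significant untreated islands did. The genome's shares lie within these limits. Any untreated candidate lay under 24.0% of the significant DRB islands (16.0 to 33.6) and under 58.3% of the DRB members that were not significant (56.5 to 60.1). Any DRB candidate lay under 64.5% of the significant untreated islands (53.9 to 74.2) and under 69.0% of the others (66.8 to 71.1). These last shares have no value for the genome beside them, and width was not taken into account. The median width was 1.0 kb for significant DRB islands and 2.0 kb for all DRB members.

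The fold itself could be compared at 1284 untreated members that lay over DRB islands, with the reads of all DRB islands under 1 untreated island summed. The paired stretches need not have the same ends. A DRB island that touched more than 1 untreated island was counted for each of them, so the pairs are not all separate DRB measurements. The median fold was 1.17 with DRB and 1.05 untreated, and the median log2 ratio was 0.17, against 0.28 over all paired islands of the genome. The exact conditional test, adjusted over 23639 such islands of the genome, called 10 members lower with DRB and 0 higher, where 0.470% of all paired islands were lower and 0.0931% higher. At an unadjusted p under 0.05, 34 members were lower and 56 higher, where 1.58% of all paired islands were lower and 7.25% higher. The test compares these pooled libraries and not the conditions, since the DRB condition has 1 library of each kind.

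Among the 60 significant untreated islands with a DRB counterpart, the median fold was 1.03 with DRB and 1.37 untreated, and the DRB value was below the untreated one in 49 (81.7%). Over the 1031 such islands of the genome the medians were 1.23 with DRB and 1.36 untreated, and the DRB value was below in 61.6%. Among the 1224 members that were not significant untreated, the medians were 1.18 with DRB and 1.04 untreated, and the DRB value was below in 391. The 60 islands were selected on their untreated fold, so a lower DRB value is partly built in. Relative to the candidate medians per kb, input under the 60 islands was 1.68 times with DRB and 1.26 times untreated, and IP was 1.14 times with DRB and 1.55 times untreated. The 1224 others differed in the same direction but by less. Their input was 1.29 times with DRB and 1.11 times untreated, and their IP was 0.997 times with DRB and 1.06 times untreated.

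**Figure D4:**
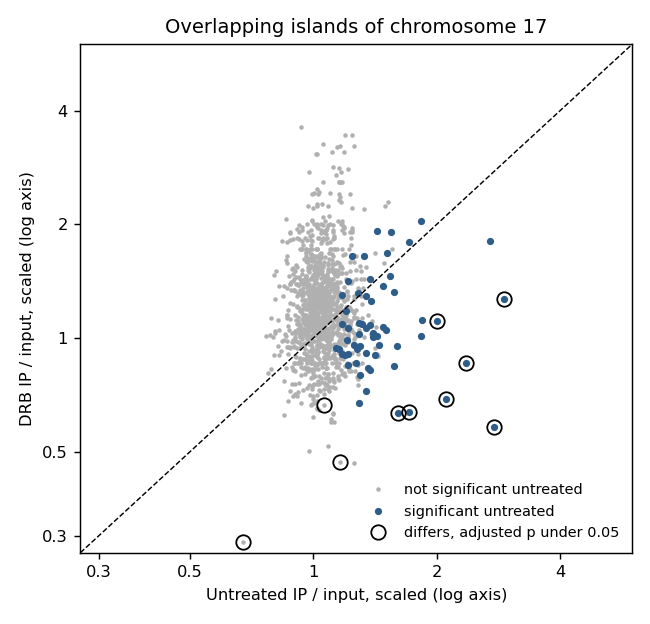
DRB fold against untreated fold, on log axes, for the 1284 overlapping islands of chromosome 17, with the 60 significant untreated islands in blue, the 10 that differ at an adjusted p under 0.05 ringed, and the line of equal folds dashed. All 10 ringed islands lie below the line.

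At the 8076001 island on the p arm, DRB gave 31 IP and 46 input reads, 0.58-fold (0.36 to 0.93), against 2.76-fold (2.29 to 3.33) untreated. The DRB fold was 0.21 times the untreated one (0.12 to 0.35; exact conditional test, adjusted p = 4.82e-07), the steepest difference among the 10. Per kb, relative to the candidate medians, its IP was 1.15 with DRB and 4.40 untreated, and its input was 2.99 with DRB and 1.71 untreated. Relative to those medians, IP was thus lower and input higher with DRB.

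The q arm group at 56708001 to 56758200 differed at 2 of its 3 islands. At 56708001, DRB gave 100 IP and 100 input reads, 0.86-fold (0.65 to 1.15), which was 0.37 times the untreated fold (0.27 to 0.50; exact conditional test, adjusted p = 2.44e-07). At 56734601, DRB gave 56 IP and 70 input reads, 0.69-fold (0.48 to 0.99), which was 0.33 times (0.22 to 0.49; adjusted p = 1.05e-05 in the exact test). The third, at 56756401, had only 21 IP and 10 input reads with DRB, 1.81-fold (0.81 to 4.30), and its ratio of 0.67 (0.29 to 1.65) did not pass (exact test, adjusted p = 0.867).

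In the group around 41399601 to 41467400, 4 islands were lower with DRB. The ratio of the DRB to the untreated fold was 0.37 (0.27 to 0.52) at 41435601 and 0.39 (0.24 to 0.64) at 41444201, both significant untreated. It was 0.62 (0.53 to 0.73) at 41399601 and 0.40 (0.27 to 0.60) at 41465601, which were not. Over those last 2, DRB input was 5.16 and 5.36 times the candidate median per kb, against 2.01 and 3.08 times untreated. Their DRB islands at 41399601 to 41403800, with 267 IP and 397 input reads, and at 41465401 to 41467800, with 49 IP and 90 input reads, were 2 of the 3 DRB members with IP below input at an adjusted p under 0.05 in the exact binomial test (0.0826% of all DRB candidates). The pair at 41399601 sums 4 DRB islands of unlike fold, 0.58 (0.49 to 0.68) in the one just named, which has 13.5 times the median input density, and 0.84 (0.50 to 1.39), 1.94 (0.80 to 5.15) and 2.58 (1.18 to 6.24) in the others.

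The short q arm islands were among the 10 as well. At 33478001, 199 IP and 135 input reads gave 1.27-fold (1.01 to 1.59) with DRB, 0.44 times the untreated fold (0.32 to 0.60; exact test, adjusted p = 4.82e-05). At 31149401, 209 IP and 162 input reads gave 1.11-fold (0.90 to 1.37) with DRB, 0.55 times (0.41 to 0.74; exact test, adjusted p = 0.0157). Input density there was 48.2 and 16.5 times the DRB candidate median, against 5.69 and 4.68 times the untreated one, and the IP density relative to its own median was likewise higher with DRB.

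The lowest p of all belonged to a single 200 bp window near the stretch without islands, at 22020601 to 22020800. It had 194 IP and 580 input reads with DRB, 0.29-fold (0.24 to 0.34), and 355 IP and 565 input reads untreated, 0.67-fold (0.59 to 0.77). Its input density was 414 times the candidate median with DRB and 54.0 times untreated, the highest of any member in either table. Other islands of dense input in both tables lay between 22249601 and 22261800, with folds of 0.50 to 1.07 with DRB and 0.98 to 1.06 untreated. Input was denser relative to its median with DRB than untreated at all 10 islands of lowest p, and IP was less dense at 6 of them. Over all 1284 paired members, input was denser with DRB at 831 and IP less dense at 785. The 10 were picked on the difference in fold, of which input is the divisor, so their denser DRB input is partly built in. The part of input in these differences was not tested. After dropping islands whose input density reached 5 times the median, 5 of the 10 islands could be compared, and 3 of those passed. Those 3, at 8076001, 41435601 and 56734601, kept the denser relative input. It was 2.99, 3.12 and 2.63 times the median with DRB, against 1.71, 1.27 and 1.74 times untreated. At 50% reciprocal overlap, 7 of the 10 could be compared and all 7 passed. Those at 8076001 and 56734601 were among the 7. The island at 41435601, which lay over 2 DRB islands, was not.

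**Figure D5:**
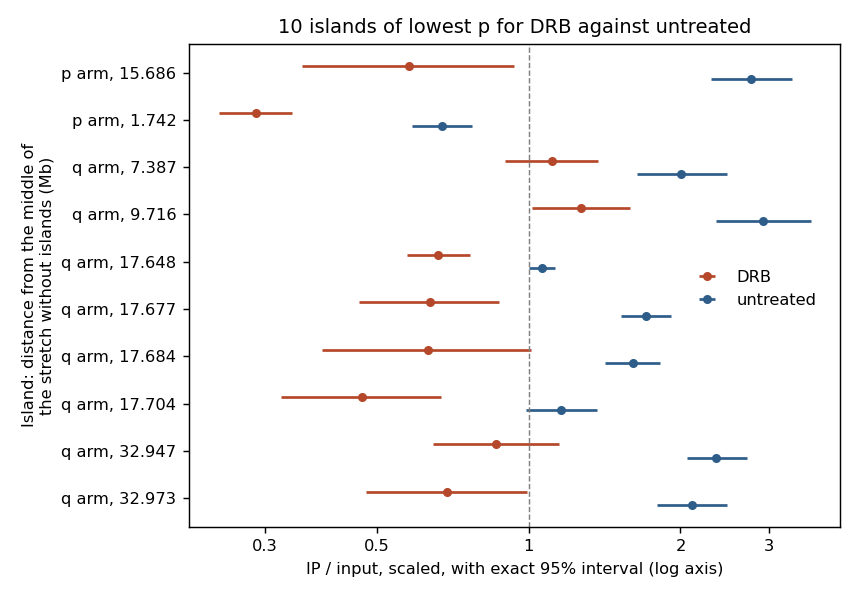
Scaled IP over input with exact 95% intervals on a log axis for the 10 islands of lowest p, DRB above untreated in each row, placed by distance from the middle of the stretch without islands. The 2 intervals of each island are apart, and the DRB value is below 1 in 8 of the 10.

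The 5 widest significant untreated islands did not pass this test. At 56060401 the fold was 0.94 with DRB (0.79 to 1.12) and 1.14 untreated (1.07 to 1.21), from 282 IP and 258 input reads with DRB, and its adjusted p in the exact test was 0.552. The DRB value was below the untreated one in 4 of the 5 widest significant islands, with adjusted p from 0.44 to 0.922 in the exact test. The 9.4 kb island at 7474601 had 0.84-fold (0.55 to 1.29) with DRB against 1.58-fold (1.41 to 1.77) untreated, a ratio of 0.54 (0.34 to 0.83) with an adjusted p of 0.285 in the exact test. When each table was scaled to the median of all paired islands, the islands at 56060401, 73767001, 79810801 and 7474601 passed, with adjusted p from 0.00295 to 0.0164 in the exact test. A p that misses the limit does not show that the folds were alike.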

How the data were processed

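Anti-HA ChIP-seq and input libraries of HepG2 cells carrying HA-METTL14 were analysed from 2 deposited tables of candidate islands and 2 lists of significant islands. Bowtie 1.1.2, FastQC 0.11.5 and SICER are the tools, and hg19 the build, in the submitters' processing notes; how SICER was set and how the untreated replicates were pooled is not given in the sources used here. The deposited counts are whole IP and input reads per island, not normalized. The authors' deposited fold is a ratio, IP over input times 1 constant per table wherever input is above 0, as in every chromosome 17 member, and their deposited p-value and false discovery rate compare IP with scaled input in each island. The significant lists equal the islands with a false discovery rate under 1e-04, checked on the values as was the constant.

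Positions are 1-based, and each island belongs to the 1 Mb bin of its midpoint. Each fold's interval comes from the exact Clopper-Pearson bounds of its IP share. IP and input were compared by exact binomial tests, and the tables by exact conditional tests (Fisher's noncentral hypergeometric distribution), two-sided, with Benjamini-Hochberg adjustment over the whole genome. Bounds of a median are exact order-statistic bounds. No filter on low values was applied. The tests were tested on simulated data.

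Named islands were, per condition, the 10 with the highest lower bound of the fold and the 5 widest significant ones; named bins were the 5 highest and 3 lowest in summed fold; and the 10 overlapping islands of lowest p were named. Other islands and groups in the text were chosen after their values were seen. The members, lists and rules were chosen with earlier results of these data known. Planned lists of chromosome 17 genes were not run, because hg19 annotation was not used here, and no sequence is printed for the same reason. Alternatives were a 10 times lower false discovery rate, a minimum of 10 input reads, no scaling, summed reads, other scalings between tables, other bin widths, 50% reciprocal overlap, an extension by 1 kb, restoring the windows left out, and leaving out islands whose input density reached 5 times the median. The software was SciPy 1.17.1, pandas 2.3.3 and numpy 2.4.6 in Python 3.11.15, with matplotlib 3.10.9 for the figures.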

Additional observations from a re-analysis of the deposited data

Results flagged for a closer look

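The values in this section are the DRB fold over the untreated fold wherever the exact conditional test of the difference passed an adjusted p of 0.05, for named islands and named bins. The tests compare pooled libraries and not replicates.

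The islands were all lower with DRB. The ratios were 0.427 at 22020601, 0.365 at 56708001, 0.210 at 8076001, 0.623 at 41399601, 0.373 at 41435601, 0.326 at 56734601, 0.436 at 33478001, 0.403 at 41465601, 0.553 at 31149401 and 0.393 at 41444201. Relative input density was higher with DRB at all 10, and at 831 of all 1284 paired members.

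Among the named bins, the ratio was 1.85 at 51 to 52 Mb, 1.81 at 11 to 12 Mb, 1.64 at 20 to 21 Mb, 1.59 at 13 to 14 Mb, 1.34 at 26 to 27 Mb and 1.24 at 65 to 66 Mb. It was 0.660 at 22 to 23 Mb and 0.886 at 41 to 42 Mb. Most bins of the genome, 1841 of 2392, were higher with DRB by the same test. The islands summed in a bin differ between the tables, each picked on its own IP reads.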

How the results depend on the processing

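Counts of significant islands depended on the test. With DRB, a 10 times lower false discovery rate left 23 of 100, the exact binomial test 0 at either limit, and at least 10 input reads 13. Untreated, the exact binomial test at the limit of the list called 19, against 93. The median DRB fold of 1.39 became 1.62 without scaling, 1.22 from summed reads and 1.23 with at least 10 input reads; the untreated one of 1.06 became 0.989 without scaling. The DRB ratio of p to q arm became 0.962 from summed reads and 1.01 with at least 10 input reads. Islands lower with DRB numbered 23 when scaled to the median of all paired islands, 1.79% against 1.37% of all paired islands, with all 10 of lowest p still called. Without islands of high input density they numbered 3, at 8076001, 41435601 and 56734601, of 5 of the 10 still tested. Bins lower with DRB numbered 1 in 2 Mb bins, 14 when scaled to autosomes and X, and 0 without islands of high input density. Bins higher with DRB numbered 30 in 2 Mb bins, out of 41, and 6 when scaled. Shared significant islands numbered 1 after extension by 1 kb. The other 26 of 45 alternative values stayed within 1.5 times a reported count or within the interval of a reported median or ratio. The cause of the changes was not tested, apart from fewer islands or bins where the alternative removes them. No paired analysis was possible because the tables pool the replicates, and for the same reason no replicate could be left out. With a median of 15 input reads per DRB member, depth limits what the DRB table can show.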
